A study of Mus musculus with 33 samples.

Results

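The genes described here encode the proteins of synaptic vesicles and of regulated exocytosis, followed across sorted olfactory neurons and the whole olfactory epithelium of mice carrying different doses of Dnmt3a. Members were taken by name from the deposited tables. They are the genes starting with Syt and a digit, Sytl, Vamp, Stx and a digit, Stxbp, Cplx, Rims, Rab3, Snap2, Sv2 or Slc17a, together with Syp, Syn1, Syn2 and Syn3. This gave 95 genes of the 15988 listed in either table. Of these, 83 were in both tables, 6 were only in the table of sorted neurons and 6 only in that of the whole epithelium. The name rule also took in 14 genes outside the family's roles, namely 12 Rab proteins of the Rab30 to Rab39 series and the renal transporters Slc17a1 and Slc17a3. They are counted among the 95 and named as such.

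Neurotransmitter is loaded into vesicles by transporters such as those of the Slc17a family, which carry glutamate (Slc17a6, Slc17a7 and Slc17a8), nucleotides (Slc17a9) or sialic acid (Slc17a5). Vesicles then dock through Rab3 GTPases and the RIM scaffolds of the active zone. Fusion is driven by SNARE proteins, with Vamp proteins on the vesicle and Stx and Snap proteins on the target membrane, held in check by complexins and Stxbp proteins and triggered through synaptotagmins, most of which sense calcium. Olfactory sensory neurons are glutamatergic and send their axons to the olfactory bulb, so mRNAs for a presynaptic terminal that lies in the brain are found in cell bodies in the nose. Most families have one set of paralogs used by neurons and another used by secretory, immune or epithelial cells.

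All animals were 3 weeks old and were wild type (WT), heterozygous (Het) or null (KO) for Dnmt3a, the gene of an enzyme that places new methyl groups on DNA. One source of RNA was mature olfactory sensory neurons (mOSN) purified by flow sorting, where the authors merged the 2 libraries of a genotype into 1 value. The other was the whole main olfactory epithelium (MOE). For MOE, animals spent 10 min in a cage and were then exposed for 60 min to 80 µL of water or of amyl acetate, acetophenone and octanal in equal parts (odor below), with 1 library for each genotype and treatment. The labels used here do not give the marker used for sorting, the part of Dnmt3a that was deleted, the sex, or whether libraries shared animals. In mOSN, WT libraries used the ScriptSeq kit (200 ng of RNA) and KO libraries the NuGEN kit (100 ng), with 1 Het library of each kind, so kit and genotype cannot be told apart there. All 6 MOE libraries were made with NuGEN.

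Values are the deposited RPKM-scale values, which are per gene length and can be compared between genes of a table. Recovered reads per MOE library ranged from 9410063 to 17639584, with a median of 324 to 596 reads per member. The depth behind the mOSN values is unknown. Dnmt3a, the targeted gene, was lower in mutants: mOSN values were 175 (WT), 119.9 (Het) and 56.2 (KO), and the WT, Het and KO pairs of MOE libraries (water, then odor) read 84.4 and 89.0, 50.3 and 66.6, and 56.1 and 48.3. Markers were as labelled in WT mOSN. Omp, the mature neuron marker, stood at 16660.5 in mOSN and at 5962 and 2717 in MOE, while Cyp2g1, an enzyme of supporting cells, stood at 132 against 7492 and 9777. The Het odor library stood apart, with Omp at 249 and 8 mature neuron markers summing to 4967, against 9055 to 25376 in the other 5 MOE libraries.

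Sorted WT neurons held a full set of vesicle mRNAs, and in 7 of 11 role groups 1 paralog supplied over 50% of the summed value. Of the 89 members in the mOSN table, 38 were at 100 or more and 25 were under 10 in WT. Slc17a6, the vesicular glutamate transporter VGLUT2, was the highest at 1540.5, above 98.9% of all genes in that column. It made up 96.8% of the transporter sum, and Slc17a7, which encodes VGLUT1, stood at 7.31 or 0.460%. The complexins were as one-sided. Cplx2 was at 731, or 98.5% of the complexin sum, with Cplx1 at 8.0 and Cplx3 at 3.23.

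The SNARE genes in WT mOSN were led by the neuronal forms, joined by endosomal syntaxins. Snap25, the target-membrane SNARE of synapses, was at 1326 and made up 36.4% of the target SNARE sum, while its widely expressed relative Snap23 was at 8.76. Stx12 and Stx7, syntaxins of endosomes, were at 668 and 596. The synaptic syntaxin gene Stx1a was lower, at 121. Among vesicle SNAREs, Vamp2 (synaptobrevin) was at 497, or 64.9% of the sum, followed by Vamp1 at 111 and the broadly used Vamp3 at 78.4.

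Calcium sensors and vesicle membrane proteins were spread over more paralogs. Syt11, a synaptotagmin that does not bind calcium, was the highest of its family at 768, or 32.5% of the synaptotagmin sum. Syt1, the fast calcium sensor of synapses, followed at 613 (25.9%). Syt7, a sensor of slower release, was at 288, Syt5 at 221, Syt4 at 217 and Syt14 at 145. Syp (synaptophysin), an abundant vesicle membrane protein, was at 824 and made up 40.7% of its group. Sv2c at 416, Sv2a at 281 and Sv2b at 207, glycoproteins of the vesicle membrane, were all above the synapsins Syn1 at 152, Syn2 at 127 and Syn3 at 18.7. In the docking machinery Rab3a stood at 330.

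Rab3b, at 210, supplied 35.0% of the Rab3 GTPase sum, and Rab3c was at 9.80. The Rab3 regulators Rab3gap1, Rab3gap2 and Rab3ip were at 364, 304 and 205. Rims3, a short RIM, was at 263 or 63.3% of the RIM sum, above the full-length scaffolds Rims2 at 113 and Rims1 at 35.6. Sytl2, which binds Rab27 on secretory vesicles, was at 314 or 82.8% of the synaptotagmin-like sum. Other members at 100 or more included Stx2 at 289, Stx3 at 122, Snap29 at 117, Stx6 at 116 and Stxbp5l at 109, and 4 Rab genes taken in by name only, from Rab35 at 132 to Rab39b at 252. These are single pooled values, so the order of near neighbours, such as Stx6 and Snap29, has no error attached.

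**Figure D1:**
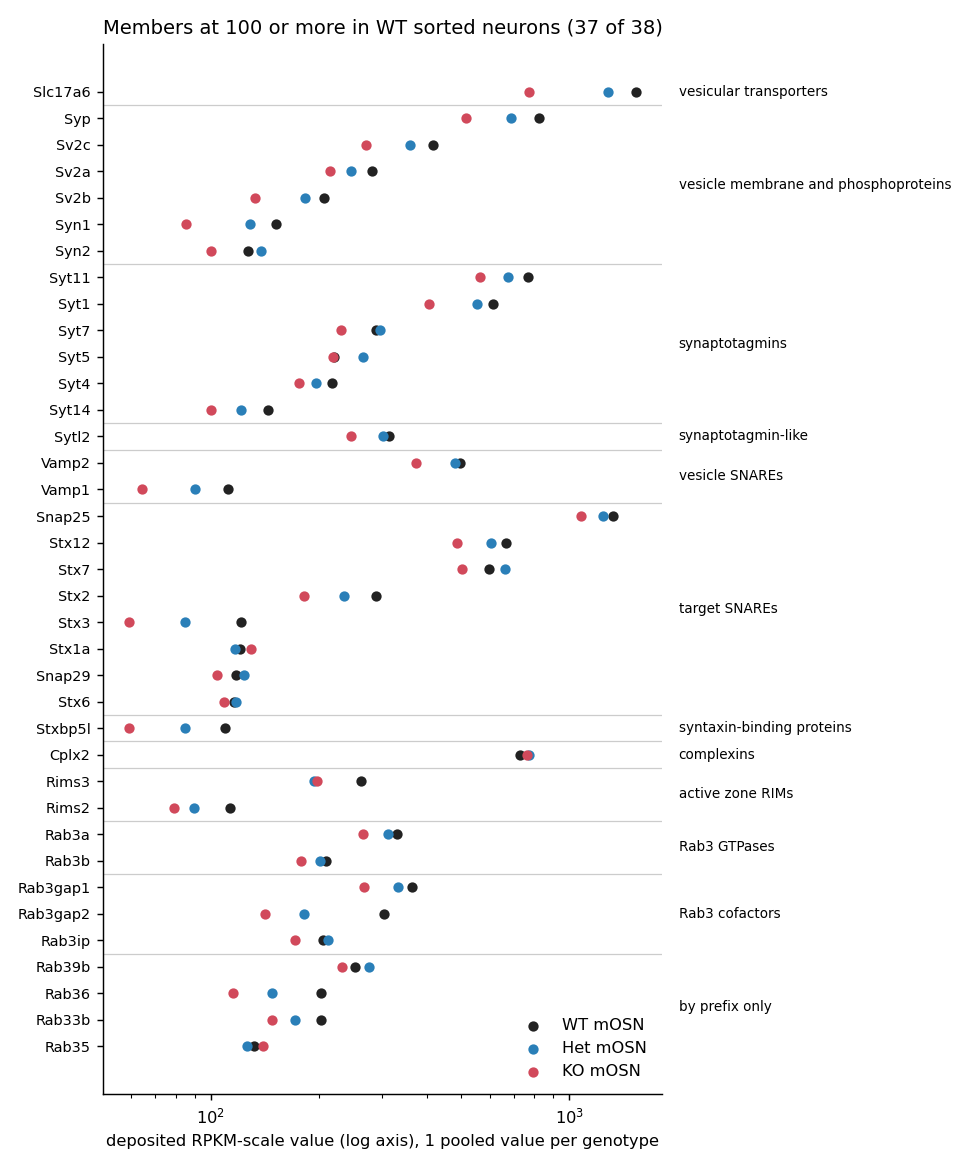
Deposited values (RPKM scale, log axis) of 37 members at 100 or more in WT sorted neurons, ordered by role, with 1 point per genotype. Each point is 1 pooled value with no error. In 33 of the 37 the KO point is the lowest of the 3, and Slc17a6 and Snap25 lie farthest to the right in WT.

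The transporter and complexin pairs are shown with their upstream sequence, because in each pair 1 paralog dominated in mOSN and the other carried the widest swings between MOE libraries described below. CG dinucleotides, the sites a DNA methyltransferase of this kind acts on, are in capitals. Each run is the 250 bases before a start site in RefSeq's annotation of GRCm38.p6, read 5′ to 3′ on the gene's strand: chr7:51621580-51621829 (plus) for Slc17a6, chr7:45163671-45163920 (plus) for Slc17a7, chr13:54302306-54302555 (plus) for Cplx2 and chr5:108550028-108550277 (minus) for Cplx1.
Slc17a6: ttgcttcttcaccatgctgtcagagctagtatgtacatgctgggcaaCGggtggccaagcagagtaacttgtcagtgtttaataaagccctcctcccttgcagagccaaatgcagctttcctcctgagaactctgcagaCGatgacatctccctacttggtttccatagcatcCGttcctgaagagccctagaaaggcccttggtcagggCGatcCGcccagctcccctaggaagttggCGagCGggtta
Slc17a7: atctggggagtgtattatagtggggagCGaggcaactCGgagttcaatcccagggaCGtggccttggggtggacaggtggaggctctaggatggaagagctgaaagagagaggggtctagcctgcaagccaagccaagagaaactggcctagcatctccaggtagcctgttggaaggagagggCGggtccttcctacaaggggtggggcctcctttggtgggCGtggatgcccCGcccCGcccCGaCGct
Cplx2: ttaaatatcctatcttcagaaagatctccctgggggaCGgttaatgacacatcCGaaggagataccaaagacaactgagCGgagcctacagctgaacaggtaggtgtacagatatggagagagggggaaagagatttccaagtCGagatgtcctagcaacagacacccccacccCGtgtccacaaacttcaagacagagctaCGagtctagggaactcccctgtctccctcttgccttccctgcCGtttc
Cplx1: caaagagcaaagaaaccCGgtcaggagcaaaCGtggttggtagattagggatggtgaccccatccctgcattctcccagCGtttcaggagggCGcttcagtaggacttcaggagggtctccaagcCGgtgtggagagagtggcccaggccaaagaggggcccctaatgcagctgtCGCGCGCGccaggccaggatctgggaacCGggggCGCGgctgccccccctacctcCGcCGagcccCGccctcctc
The 2 paralogs that led in mOSN, Slc17a6 and Cplx2, each had 7 CG in this window, and Slc17a7 and Cplx1 had 9 and 15. Promoters of 74 members were matched by symbol. Where a member had more than 1 start site, as Slc17a6 with 2, the one farthest upstream was used. Their median was 13 CG (middle 50% of genes 7 to 19), against 6 (2 to 16) over the 32851 windows of the table, of which 92.1% held at least 1. Those windows can hold several start sites of a gene, so the 2 medians were not counted alike. The 29 matched members at 100 or more in WT mOSN had a median of 13, and the 21 under 10 had a median of 9. These counts describe the letters of the windows, and methylation of these sites was not analysed here.

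Members lay on both sides of the ratio between sorted neurons and whole tissue, from Syp, the highest in sorted neurons, to Vamp5, the lowest, and the shares past 2-fold were near those of all genes. The 2 tables were normalized separately, so the ratio of WT mOSN to the mean of the 2 WT MOE libraries was centred on the median of the 13356 genes kept in both, a shift of 0.00 on the log2 scale. It is a description without a test. The members' median log2 ratio was 0.35. At least 2-fold higher in mOSN were 19 of 83 members, against 17.1% of all genes, and 19 were at least 2-fold lower, against 24.1% of all genes. In tissue a lower value cannot separate fewer cells of a type from less RNA per cell.

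Syp showed the highest ratio. It was at 824 in WT mOSN against 98.4 and 115 in WT MOE with water and odor, a log2 ratio of 2.95. Sytl2 was at 314 against 73.1 and 71.6 (2.11). These 2 were the only members at least 4-fold higher in WT mOSN, or 2.41% of members against 3.64% of all genes. Rab33a, a Rab of the Golgi and of axonal vesicles named by prefix only, was at 15.9 against 3.28 and 4.25 (1.95).

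Other members above 0 included several abundant ones. The log2 ratio was 1.72 for Syt11, 1.70 for Syt1, 1.69 for Syt7, 1.67 for Rab3b, 1.37 for Snap25, 1.34 for Stx12, 1.02 for Cplx2 and 0.95 for Slc17a6. Vamp2 was at 497 in mOSN and at 580.1 and 555 in MOE, so that the vesicle SNARE of synapses did not stand higher in sorted neurons (-0.19). Sv2a had a ratio of 0.06 and Sv2c one of 0.01, which was -0.22 with the KO columns. All 7 vesicle membrane proteins and synapsins had a ratio above 0, against 2 of 6 vesicle SNAREs.

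The members at least 4-fold lower in mOSN included SNAREs and SNARE partners, some of them of non-neuronal secretion. Vamp5 was at 0.643 in WT mOSN against 30.7 and 16.7 in MOE (log2 ratio -4.40). Vamp8, used in endosomes and in the granules of secretory cells, was at 14.6 against 137 and 153 (-3.27). Stxbp6 (amisyn) was at 3.61 against 50.9 and 55.3 (-3.70). Stxbp2, the Stxbp of immune and epithelial secretion, was at 4.62 against 27.4 and 33.8 (-2.60). Snap23, with a ratio of -1.69, was also lower.

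The other members at least 4-fold lower were Rab31 (-2.49), Cplx1 (-2.40), Rab34 (-2.10), Sytl4 (-2.07) and Rab32 (-2.05), 3 of them taken in by name only. With the KO columns, which share the NuGEN kit, 16 members were 2-fold higher (17.0% of all genes) and 12 were 2-fold lower (19.7% of all genes). The 4-fold lower members then numbered 4 rather than 9, while over all genes that share went from 13.1% to 7.76%. The 4-fold higher members then numbered 3 (3.61% against 4.37% of all genes), namely Rab33a at 2.63, Syp at 2.42 and Syt3 at 2.04. Sytl2 then stood at 1.74 and Vamp8 at -2.77. The ratio changed sign for 10 of the 83 members. It turned from above to below 0 for Rab3gap1 (0.18 to -0.24), Vamp1 (0.23 to -0.23), Vamp4 (0.09 to -0.27) and Sv2c. It turned from below to above 0 for 6, among them Rab34 (-2.10 to 0.24), Slc17a7 (-1.37 to 0.40), Syt12 (-1.06 to 0.51), Syt6 (-0.74 to 0.50) and Slc17a9 (-0.10 to 0.58).

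**Figure D2:**
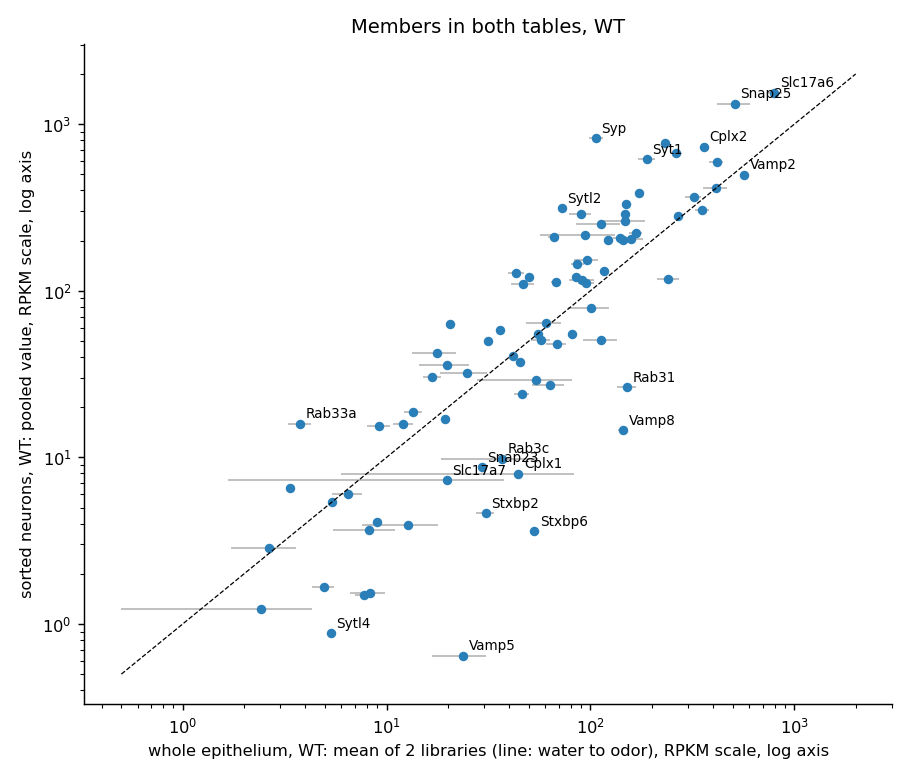
Values of the 83 members in both tables, with the WT sorted neurons on the y axis and the mean of the 2 WT MOE libraries on the x axis (RPKM scale, log axes). Grey lines join the water and odor libraries and the dashed line marks equal values. Syp and Sytl2 lie above the line, Vamp5, Stxbp6 and Vamp8 lie below it, and Slc17a7 and Cplx1 have the long grey lines.

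A second set of paralogs differed widely between MOE libraries. Both Het libraries were high, while the odor library was the lower of the WT pair and the higher of the KO pair. Slc17a7 read 37.9 and 1.67 in the WT pair (water, then odor), 69.1 and 179.9 in the Het pair, and 4.33 and 34.0 in the KO pair. The WT odor value rests on 5 reads and that of KO water on 10 reads, against 710 in Het odor. Its values thus spanned 82.9-fold (after adding 0.5), and the WT pair alone differed by -4.14 on the log2 scale from water to odor. Cplx1 read 82.6, 6.01, 164, 173, 14.6 and 32.5 in that sequence of libraries, a range of 26.7-fold.

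Syt6 read 4.33, 0.498, 9.53, 10.3, 0.891 and 3.01 in the same sequence (10.9-fold). Rab3c was at 55.1, 18.6, 49.1, 39.0, 14.5 and 25.5 (3.71-fold), and Syt13 at 21.0, 6.54, 25.8, 23.6, 9.14 and 13.1 (3.73-fold). In each of these 5 WT odor and KO water were the 2 lowest libraries, and WT water and both Het libraries the 3 highest.

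This order was chosen after the values were seen, and it has no test. WT odor and KO water were the 2 lowest libraries for 15 of the 89 members in MOE (16.9%), against 7.29% of all 14602 genes. WT water, Het water and Het odor were the 3 highest for 15 members (16.9%), against 8.68% of all genes. Both held for 9 members, among them Cplx1, Slc17a7, Syt6, Syt10, Syt13, Rab3c, Stx6 and Rab34. The share of all genes for which both held was not counted. The WT mOSN value was below the lower WT MOE library for Rab3c, Syt10 and Rab34, within the WT MOE pair for Cplx1, Slc17a7 and Syt6, and above it for Stx6.

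The share of each family's sum moved with these genes. Cplx1 made up 19.3% and 1.58% of the complexin sum in the WT pair, 41.1% and 39.8% in the Het pair, and 3.99% and 8.79% in the KO pair. Slc17a7 made up 4.6% and 0.182%, 10.4% and 31.0%, and 0.548% and 4.83% of the transporter sum. In WT mOSN the same shares were 1.08% and 0.460%. The dominant paralogs kept a narrower range, with Cplx2 between 235 and 375 (1.59-fold) and Slc17a6 between 349 and 866 (2.48-fold).

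Most markers of central neurons and glia, cells of the brain and olfactory bulb, had the same order of libraries. A list of 24 such genes, drawn up after the values were seen, had 21 in the MOE table, and its sum was 1283 and 703 in the WT pair, 1503 and 2026 in the Het pair, and 701 and 1075 in the KO pair. For 16 of the 21, WT odor and KO water were the 2 lowest, and for 16 WT water and both Het libraries were the 3 highest. Gad1, the GABA-synthesizing enzyme, was at 47.6, 1.47, 71.6, 85.0, 3.22 and 24.2. Gfap, the astrocyte filament gene, was at 98.2, 2.99, 104, 246, 17.0 and 86.5. In mOSN the list's median was 5.56 (WT), 5.75 (Het) and 8.91 (KO). Not all were low there. Of 18 compared between WT mOSN and WT MOE, 4 were at least 2-fold higher in mOSN and 10 at least 2-fold lower, against 17.1% and 24.1% of all genes. Other lists shared part of the order. WT water and both Het libraries were the 3 highest for 5 of 7 immature neuron, 3 of 4 endothelial and 3 of 6 ensheathing glia genes. WT odor and KO water were the 2 lowest for 1, 1 and 2 of these. Among markers of mature neurons, supporting cells and macrophages, 0 had either order. The part of any of these cells in the values of Slc17a7, Cplx1 and their companions was not tested.

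**Figure D3:**
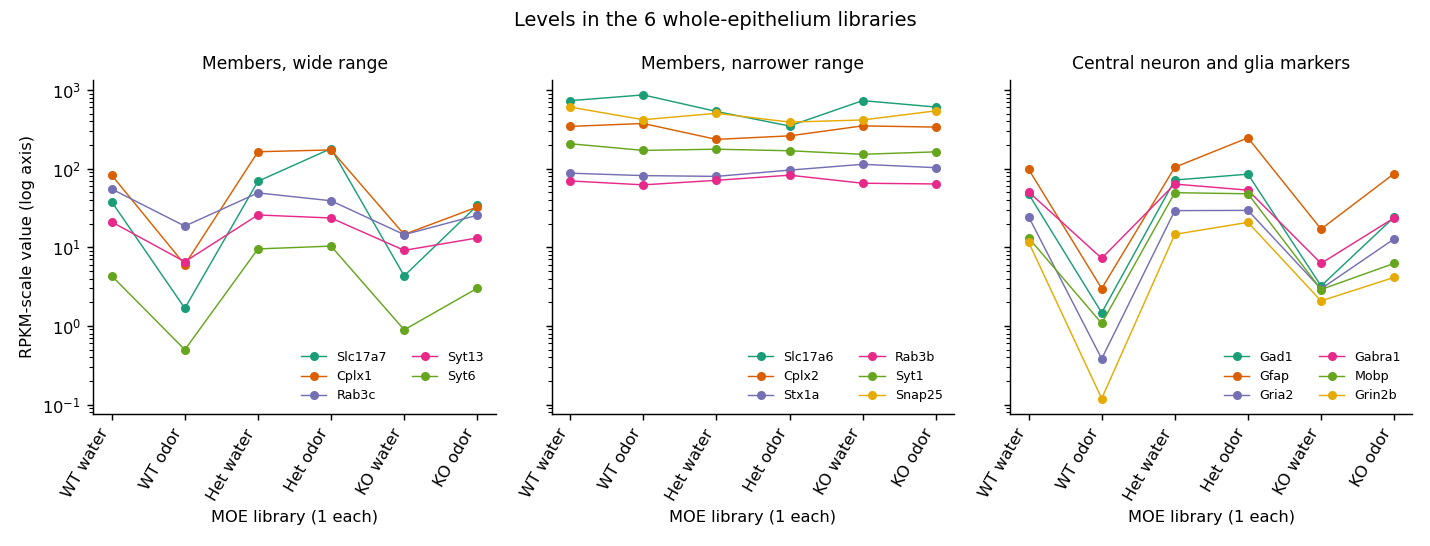
Values (RPKM scale, log axis) in the 6 MOE libraries for members with a wide range (left), other members with a narrower range (middle) and markers of central neurons and glia (right). Each point is 1 library, lines only join the points of a gene. In the left and right panels WT odor and KO water are low and both Het libraries high, while in the middle panel Cplx2 stays between 235 and 375.

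Over all members the MOE libraries differed about as much as they did over all genes. The median fold between a member's highest and lowest library was 1.85, against 1.79 for all genes, and 10 of 89 members (11.2%) ranged at least 4-fold, against 11.5%. Without the Het odor library these were 5 members (5.62%) against 8.44% of all genes. The Het odor library was the lowest for 30 members, or 33.7% against 25.9% of all genes, and the highest for 26, or 29.2% against 30.6%. The narrowest members included Vamp8 (1.15-fold), Slc17a5 (1.18-fold), Stx4a (1.18-fold) and Stx5a (1.25-fold), genes of lysosomal, granule and general trafficking.

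No member was called as changed by odor exposure, which does not show that none changed. In limma's fit over all 14602 genes, with genotype as a block, 0 of 89 members passed an adjusted p of 0.05, and 0.0137% of all genes did. At an unadjusted p of 0.05, 1 member was higher and 2 were lower, against 3.01% and 1.86% of all genes. The smallest adjusted p of a member was 0.882, and the members' median log2 difference was -0.04, against 0.00 over all genes. Separate animals are not stated for these libraries. Each p-value therefore speaks of library-to-library spread alone. With 1 library per cell of the design, an odor effect that differs between genotypes counts as error.

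Syt4 had the smallest p. This synaptotagmin, which lacks calcium binding in its first C2 domain and is known as an activity-induced gene in neurons, went from 56.4 to 131 in the WT pair, from 86.8 to 120.0 in the Het pair and from 74.4 to 107.3 in the KO pair. The 3 odor libraries all exceeded the 3 water libraries, without overlap, in a gene picked by its small p. The share of all genes with such separation was not counted. The log2 difference was 0.73 ± 0.21 (SE, limma, unadjusted p 0.0134, adjusted p 0.882), higher in 3 of 3 genotypes.

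Next by p on the higher side were Rims3, Syt7 and Stx11. Rims3 read 111 and 185 (WT), 128 and 139.7 (Het) and 155 and 194 (KO) (0.39 ± 0.17), with groups that overlapped. Syt7 went from 78.3 to 100.5, 46.9 to 64.3 and 73.9 to 87.0 (0.35 ± 0.16). Stx11 had an estimate of 0.83 ± 0.37 and was level in KO, at 11.2 and 11.1.

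Lower values with odor were led by Stxbp3b, with pairs of 80.3 and 68.4 (WT), 89.7 and 44.4 (Het) and 82.1 and 56.8 (KO) (-0.59 ± 0.21, unadjusted p 0.0334 in limma). Rab39b followed (-0.58 ± 0.23, unadjusted p 0.0494 in limma), then Syt10 (-0.51 ± 0.25), Vamp5 (-0.58 ± 0.30) and Vamp4 (-0.38 ± 0.25), an endosomal SNARE. Stxbp3b is listed in the reference as a pseudogene of Stxbp3, the gene the table calls Stxbp3a, and reads of near-identical copies may have been split between them. Vamp4, Vamp5 and Syt10 were lower in WT and Het but not in KO, and Rab39b was lower in WT and Het and level in KO (-0.01), contrasts whose unadjusted p was above 0.05 for all 4. Over all members, 6 were higher and 7 lower with odor in all 3 genotypes, or 14.6% together, against 27.5% of all genes, and no member was 2-fold apart the same way in all 3.

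**Figure D4:**
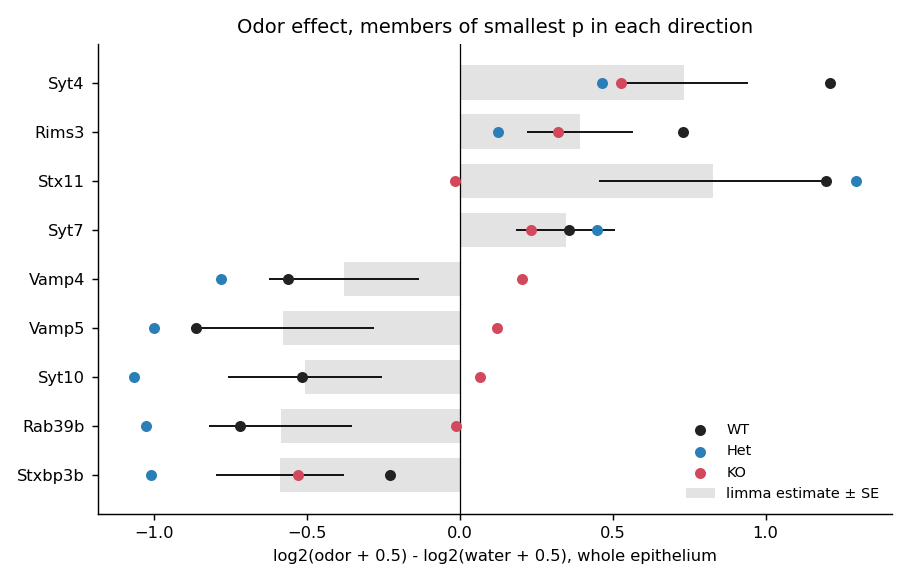
Log2 difference between odor and water in MOE for members with the smallest p, 4 higher and 5 lower. Bars give the limma estimate with its SE and points give each genotype's own pair of libraries. For Syt4 all 3 points lie above 0, and for Stx11, Vamp4, Vamp5, Syt10 and Rab39b the KO point departs from the others.

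In MOE no member was called as different between KO and WT. With 1 library per genotype and treatment, this does not show that none differed. Comparing KO with WT with treatment as a block, 0 of 89 members passed an adjusted p of 0.05, and 0% of all genes did (limma, smallest adjusted p 1.00). At an unadjusted p of 0.05 no member was higher or lower, against 1.27% and 0.966% of all genes. The members' median log2 difference was -0.04. The sign was opposite in water and odor for 61 of 89 members (68.5%), against 58.8% of all genes.

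The members with the smallest p in this comparison were of several roles. Stx19, a syntaxin of epithelial cells, was at 4.06 and 8.40 in WT with water and odor and at 17.2 and 16.0 in KO, a log2 difference of 1.42 ± 0.70 without overlap. Slc17a8, which encodes VGLUT3, was at 0.458 and 0.593 in WT and 1.23 and 3.65 in KO (1.39 ± 0.77). Stx1a was at 87.5 and 81.5 in WT and 114 and 103 in KO (0.35 ± 0.21), and Rab35 at 114 and 120.0 against 139 and 151 (0.31 ± 0.18). In these 4 both KO libraries exceeded both WT libraries. They were picked by their small p, and the share of all genes with such separation was not counted.

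On the lower side, Syt5 was at 154 and 179 in WT and 141 and 100.2 in KO (-0.48 ± 0.30). Rab3gap2, the non-catalytic subunit of the Rab3 GTPase-activating complex, was at 381 and 325 in WT and 276 and 310 in KO (-0.27 ± 0.18). Syt1 was at 207 and 170.5 against 152 and 163 (-0.25 ± 0.19), Sv2c had an estimate of -0.26 ± 0.20 and Rab33b one of -0.28 ± 0.21. The transporter Slc17a6 was at 732 and 866 in WT and 733 and 608 in KO, values that overlap. The unadjusted p of all these was above 0.05.

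Between Het and WT, which share the WT libraries with the comparison above, 0 of 89 members passed an adjusted p of 0.05, and 0% of all genes did (smallest adjusted p 0.706, limma). At an unadjusted p of 0.05, 6 members were higher, against 2.71% of all genes, and 11 were lower, against 3.99%. Together these are 19.1% of members against 6.69% of all genes. All 11 lower members were at 100 or more in WT mOSN. That level was reached by 38 of the 89 members in MOE and by 4105 of the 14738 genes in mOSN. Its share among all genes lower in Het was not counted. The higher ones included paralogs of the second set, but also Sv2a, at 281 in WT mOSN.

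Slc17a6 was at 732 and 866 in WT with water and odor and at 534 and 349 in Het (-0.88 ± 0.25). Syt7 was at 78.3 and 100.5 against 46.9 and 64.3 (-0.69 ± 0.20), and Cplx2 at 345 and 375 against 235 and 261 (-0.53 ± 0.17). Sv2c, at 358 and 470 against 244 and 275, had an estimate of -0.66 ± 0.20. For these 4 both Het libraries lay below both WT libraries. As they were picked by their small p, this adds no support, and the share over all genes was not counted. Rab36 (-0.83 ± 0.20), Vamp1 (-0.79 ± 0.24), Sytl2 (-0.99 ± 0.31), Syt14 (-0.80 ± 0.25), Stxbp5l (-1.41 ± 0.46), Stx2 (-0.62 ± 0.22) and Rab39b (-0.77 ± 0.29) made up the rest. All 8 markers of mature olfactory neurons were lower in Het too, at an unadjusted p under 0.05 each and with a median of -1.16, and their part in these values was not tested.

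The higher members included Sv2a, at 275 and 265 in WT and 405 and 538 in Het (0.79 ± 0.19), Syt10 (0.97 ± 0.31), Rab33a (1.71 ± 0.62), Cplx1 (2.86 ± 1.09) and Syt6 (2.25 ± 0.90). Rab33a and Syt6 were at least 2-fold higher in Het than in WT with both treatments, as were 0.959% of all genes. Rab33a rests on 4 and 5 reads in the WT pair and 9 and 38 in the Het pair. The list of central neurons and glia had 20 of 21 genes higher in Het, with a median of 1.59, against 7677 of all 14602 genes. Most other lists also had more genes higher than lower. Macrophage genes were higher in 6 of 6 (median 0.85), microvillous and brush cell genes in 6 of 6 (0.34) and immature neuron genes in 6 of 7 (0.36). Supporting cell genes were higher in 2 of 6. The part of any of these cells in these values was not tested. Without the Het odor library 3 members were higher at an unadjusted p of 0.05, against 1.12% of all genes, and 3 were lower, against 1.64% of them. The higher ones were then Syt10 (1.39), Stxbp6 (1.07) and Sv2a (0.64), and the lower ones Syt7 (-0.76), Rab36 (-0.72) and Cplx2 (-0.59). Slc17a6 then stood at -0.58 and Rab33a at 0.82.

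The odor effect of the KO pair was also compared with that shared by the WT and Het pairs. No member of 89 passed an adjusted p of 0.05, and 0% of all genes did, with a smallest member value of 0.673 in limma. At an unadjusted p of 0.05, 3 members were higher, against 3.75% of all genes, and 1 was lower, against 3.36%. Snap25 went from 606 to 419 in the WT pair and from 506 to 391 in the Het pair, but from 416 to 543 in the KO pair, a log2 difference of 0.84 ± 0.32. The odor library was thus the lower one in WT and Het and the higher one in KO. Rab3c (1.73 ± 0.65) and Rab37 (2.09 ± 0.76), a Rab of secretory granules, were the other higher ones. Syt5 was the lower one, with pairs of 154 and 179 (WT), 195 and 309 (Het) and 141 and 100.2 (KO) and an estimate of -0.93 ± 0.36. For Rab3c the order of libraries is the one described for Slc17a7 and Cplx1, and 17 of 21 genes of the list of central neurons and glia were also higher in this contrast. So were all 8 markers of mature olfactory neurons, with a median of 0.84. The part of either in these values was not tested.

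In sorted neurons most abundant members were lower in KO than in WT, as were most abundant genes. Of the 38 at 100 or more in WT, 35 (92.1%) were lower in KO, against 90.4% of all 4105 genes at that level, and KO was the lowest genotype for 34 (89.5% against 85.2%). The order WT, Het, KO held for 26 (68.4% against 59.8%). Choosing genes by a high WT value favours a lower value elsewhere. These are single pooled values from libraries made with different kits, with no test. Over all 89 members the median log2 ratio of KO to WT was -0.24, against -0.13 over all 14738 genes. Split by mean level, the 70 members with a mean of 10 or more had a median of -0.34, against -0.29 for all 11058 such genes, and 54 of the 70 were lower. The 19 members under 10 had a median of 0.87, against 1.01 for all 3680 such genes. Members thus sat near the genes of their own level.

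Slc17a6 read 1540.5, 1286 and 774 in WT, Het and KO, a log2 ratio of KO to WT of -0.99. The other transporters were low, with Slc17a5 at 37.3, 44.2 and 32.4. All 7 vesicle membrane proteins and synapsins were lower in KO, with a median of -0.62. Syp was at 824, 686 and 516 (-0.67) and Syn1 at 152, 129 and 85.2 (-0.83). The 8 markers of mature neurons were also all lower in KO than in WT, with a median of -0.69, and their part in these values was not tested.

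Genes of the fusion machinery ranged from level to 2-fold lower. Snap25 was at 1326, 1246 and 1079 (-0.30), Syt1 at 613, 555 and 406 (-0.60), Syt11 at 768, 674 and 565 (-0.44) and Vamp2 at 497, 481 and 372 (-0.42). Cplx2 was level at 731, 771 and 760.2 (0.06), as were Stx1a at 121, 117 and 129 (0.10) and Syt5 at 221, 266 and 219 (-0.01, or 0.12 when centred on the median of all genes). Vamp1 (-0.79), Stxbp5l (-0.88) and Stx2 (-0.67) had lower values than these. The 2 members at least 2-fold lower were Rab3gap2, at 304, 182 and 142 (-1.10), and Stx3, a syntaxin of apical membranes and ribbon synapses, at 122, 84.4 and 59.2 (-1.03), against 2.84% of all genes.

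At least 2-fold higher in KO were 13 members, against 17.5% of all genes. Among all genes with a mean under 10, that share was 50.5%. Markers of several other cell types were higher as well. Medians were 2.91 for horizontal basal cells (3 of 3 past 2-fold), 1.55 for glands (2 of 3) and 0.63 for central neurons and glia (8 of 19). Other lists went the other way, with medians of -1.04 for erythroid cells (2 of 3 at least 2-fold lower) and -0.13 for immature neurons. The part of such cells in these values was not tested. The members were the low ones Cplx1, Cplx3, Rab32, Rab34, Rims4, Slc17a7, Stxbp6, Syt12, Syt15, Syt17, Syt3, Sytl4 and Vamp5. Syt17 was at 1.98, 6.86 and 15.4 (2.68), Rims4 at 3.72, 9.93 and 20.2 (2.29) and Cplx3, a complexin of retinal ribbon synapses, at 3.23, 17.5 and 13.8 (1.94). Slc17a7 was at 7.31, 11.7 and 23.5 (1.62) and Cplx1 at 8.0, 9.26 and 16.6 (1.01), still far below Slc17a6 and Cplx2 in KO. Between Het and WT 6 members were 2-fold higher (Cplx3, Rab32, Rab34, Rims4, Syt17 and Sytl3), against 6.89% of all genes, and 0 were 2-fold lower, against 2.5%.

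**Figure D5:**
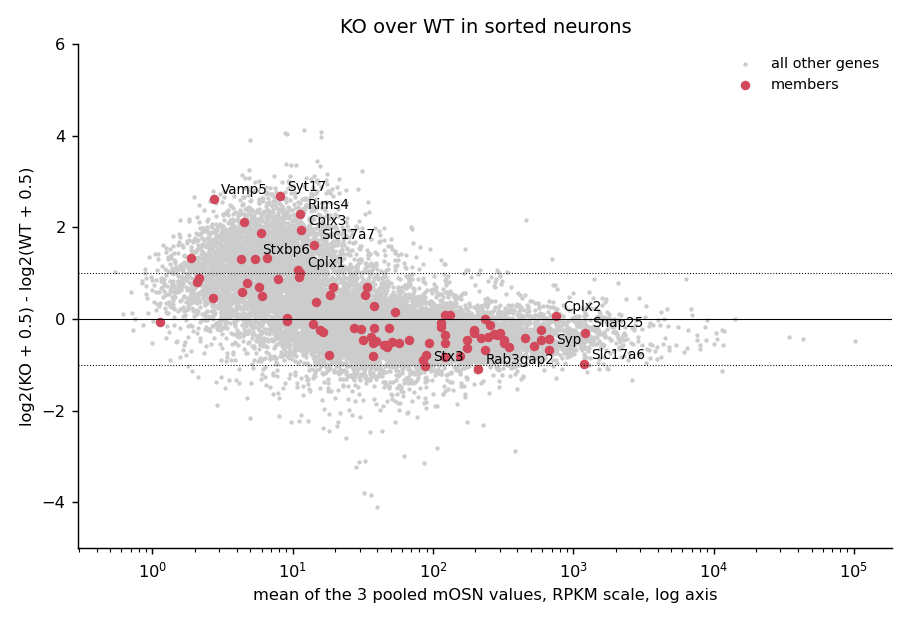
Log2 ratio of KO to WT in sorted neurons against the mean of the 3 pooled values (RPKM scale, log axis), with members in red and all other genes in grey. Dotted lines mark 2-fold. Members follow the cloud, with a median of 0.87 under a mean of 10 and of -0.34 at 10 or more.

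Other genes of vesicle priming, recycling and the active zone were counted in the same way. Of a list of 56, 51 were in MOE and 50 in mOSN. In MOE 0 of 51 passed an adjusted p of 0.05 in limma for any of the 4 comparisons. With odor 25 were higher and 26 lower, between KO and WT 17 were higher and 34 lower, and between Het and WT 31 were higher and 20 lower, with 4 of the 51 (7.84%) at an unadjusted p under 0.05, against 6.69% of all genes. In mOSN their median KO to WT ratio was -0.17, with 11 at least 2-fold higher and 0 at least 2-fold lower, against 17.5% and 2.84% of all genes. Against WT MOE, 8 of 47 (17.0%) were at least 2-fold higher in mOSN and 9 (19.1%) at least 2-fold lower, against 17.1% and 24.1% of all genes.

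Amph (amphiphysin), of vesicle recycling, was at 447 in WT mOSN against 133 and 96.5 in WT MOE with water and odor, and Unc13c, a priming factor, at 446 against 250.4 and 320. Both stood above the WT MOE libraries. Sncb, a vesicle-associated protein of nerve terminals, read 53.4 and 0.878 in the WT pair, 63.4 and 90.1 in the Het pair, and 5.67 and 24.0 in the KO pair, the library order of Slc17a7 and Cplx1. Doc2g and Synpr (synaptoporin) had that order for their 2 lowest libraries too, at 2.05 and 0.622 in WT odor against 21.5 and 17.5 in WT water. Of the 51 in MOE, 13 had WT odor and KO water as the 2 lowest, against 7.29% of all genes. For 16, WT water and both Het libraries were the 3 highest, against 8.68% of all genes.

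Members listed in 1 table only were low, apart from Rab38 (mean of the WT libraries 33.4) and Stxbp3b (74.3). In mOSN alone stood Cplx3, Rims4, Slc17a3, Syt17, Syt2 and Syt8, between 1.35 and 8.05 in WT. In MOE alone stood Rab38, Slc17a8, Stx19, Stxbp3b, Syt13 and Sytl5, the mean of whose WT libraries ran from 0.526 to 74.3. Neither table holds a value of 0, and whether genes at 0 were left out is not given in the sources used here, so that no fold was taken for these 12.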

How the data were processed

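RNA-seq values came from 2 deposited tables, in a unit the authors call RPKM. Per the submitters' processing notes STAR 2.3.0 and Bowtie2 2.1 are listed along with featureCounts, DESeq and Picard 1.64, and the builds mm9 and NCBIM37. Their order and the RPKM formula are not given in the sources used here. Whole reads were recovered from the deposited MOE values for 14613 genes and gave the depths. The mOSN table pools 2 libraries per genotype (7 rows without values dropped), so the planned tests there could not be run.

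Values were taken as log2(value + 0.5) where 2 or more columns reached 0.5, so log2 differences understate changes of low genes. MOE comparisons used limma 3.58.1 in R 4.3.3 (two-sided moderated tests with its trend option, adjusted by Benjamini-Hochberg over 14602 genes, threshold 0.05), with 2 residual degrees of freedom, or 1 for the odor effect in KO. The scripts were tested on simulated data. Named genes are those at 100 or more in WT mOSN, highest in a role, with the 5 smallest p in each direction, or past the folds given. Members and lists were chosen with earlier results of these data known. A few members and list genes are counted in totals but not reported here by name.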

Additional observations from a re-analysis of the deposited data

How the results depend on the processing

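No member was called in any MOE fit. The direction of a member's odor estimate could rest on 1 genotype's pair. For Cplx1 it was -0.82 over all libraries, while the single pairs gave -3.68 (WT), 0.08 (Het) and 1.13 (KO). For Slc17a7 it was 0.02, with -4.14, 1.37 and 2.84 in the same pairs. Centring on all genes turned the mOSN KO to WT ratio of 6 members from below to above 0, Syt5 among them, and 10 mOSN over MOE ratios turned with the KO columns. The 2 genes called for odor over all genes became 1 with median-ratio scaling, 1 without the genotype block, 0 without the mean-variance trend, 6 with voom on recovered reads, and 0 to 4 when 1 genotype's pair was left out. The members' median between Het and WT in MOE (-0.01) was 0.059 without the Het odor library and -0.049 in the water libraries alone. That of the odor effect in KO (0.14) was 0.091 for genes with a mean of 5 or more. In mOSN, centring on all genes left 0 members 2-fold lower in KO (2 without it) and a median of -0.10. For mOSN over MOE, 12 members were 2-fold lower with the KO columns (19 with WT), and the median was 0.23 without the genes taken in by name only. The cause of these moves was not tested. No paired analysis was possible because the mOSN libraries that share replicate numbers were pooled into 1 value per genotype. Leaving out the Het odor library and the splits at a mean of 10 were chosen after seeing the data. MOE depth limits members such as Slc17a7, with 5 reads in WT odor.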
